A study of Mus musculus with 4 samples.

Results

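Cytochrome P450 enzymes are heme-containing monooxygenases, and their genes were compared between mutant and control epidermis of newborn mice. The members were every gene whose symbol starts with Cyp and a digit, 105 of the 24453 gene symbols counted, in 17 families by the number that follows Cyp. Family 2 held 51 members, family 4 held 23 and family 3 held 9. Among the 105 were 4 pseudogene symbols and Cyp4x1os, an RNA from the strand opposite Cyp4x1 that encodes no P450. The members were chosen by gene symbol and by no measured value, but the group of genes was selected with the counts of this mutant and control contrast already examined, so counts over the members are a description. RNA was sequenced from back skin at postnatal day 0, from cells that a sorter took as EpCAM+, Sca1+ and high in α6-integrin, a gate for basal keratinocytes of the interfollicular skin. The mutant genotype was Ring1a-/- Ring1b-/I53A: no Ring1a, and a null Ring1b allele over the I53A allele, whose protein lacks the E3 ligase activity of Polycomb repressive complex 1 toward histone H2A. The other group is labelled only as control, with no alleles given, so effects of the I53A protein cannot be told apart from those of lost Ring1a or of the null Ring1b allele. There were 2 libraries in each group, and no label says whether the libraries of a group came from separate animals, so p-values measure only the spread between these libraries.

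P450 enzymes of the endoplasmic reticulum take electrons from the reductase Por and from cytochrome b5, and insert 1 oxygen atom into a lipid-soluble substrate. Families 1 to 3 are best known for clearing drugs and other foreign compounds, family 4 for hydroxylating fatty acids, and the families of higher number mostly for making or breaking down sterols, steroid hormones, bile acids, vitamin D and retinoic acid. In skin, P450 enzymes are known for making the long fatty acids of barrier ceramides, for epoxidizing arachidonic acid, for local vitamin D activation and for limiting retinoic acid. Polycomb repressive complex 1 represses developmental genes, and its targets in mammals mostly have promoters rich in CpG dinucleotides.

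The promoters of the genes on which the results turn are printed because they differ in CpG content. They are the RefSeq windows of 300 bases, 250 before to 50 after the annotated start, on GRCm38.p6, read 5′ to 3′ on the strand of the gene, with each CpG dinucleotide in capitals. Cyp46a1 (chr12:108334066-108334365, + strand) was the member that rose in the mutant, and Cyp51 (chr5:4104648-4104947, - strand) is a CpG-rich member that did not pass the test. Cyp2w1 (chr5:139352366-139352665, + strand), Cyp4b1 (chr4:115647672-115647971, - strand), Cyp2j6 (chr4:96553602-96553901, - strand) and Cyp2f2 (chr7:27119705-27120004, + strand) fell. Cyp2g1, which also fell, is named only.
Cyp46a1: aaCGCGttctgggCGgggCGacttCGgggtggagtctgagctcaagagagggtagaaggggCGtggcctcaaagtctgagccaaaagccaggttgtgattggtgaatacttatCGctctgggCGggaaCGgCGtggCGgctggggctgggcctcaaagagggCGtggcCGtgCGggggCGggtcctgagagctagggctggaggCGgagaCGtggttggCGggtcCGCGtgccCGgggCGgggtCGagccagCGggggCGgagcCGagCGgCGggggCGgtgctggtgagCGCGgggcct
Cyp51: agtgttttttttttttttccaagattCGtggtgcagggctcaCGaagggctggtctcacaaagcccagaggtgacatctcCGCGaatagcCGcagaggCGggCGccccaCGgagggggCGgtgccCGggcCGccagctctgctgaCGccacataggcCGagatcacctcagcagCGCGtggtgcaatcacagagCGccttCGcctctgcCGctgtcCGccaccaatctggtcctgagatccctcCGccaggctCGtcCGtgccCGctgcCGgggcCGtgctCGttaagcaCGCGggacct
Cyp2w1: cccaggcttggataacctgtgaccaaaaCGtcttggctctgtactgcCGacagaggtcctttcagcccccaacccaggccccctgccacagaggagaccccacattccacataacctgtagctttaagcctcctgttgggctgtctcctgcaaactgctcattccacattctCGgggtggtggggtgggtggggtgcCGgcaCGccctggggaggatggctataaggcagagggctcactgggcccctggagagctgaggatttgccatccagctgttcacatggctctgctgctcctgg
Cyp4b1: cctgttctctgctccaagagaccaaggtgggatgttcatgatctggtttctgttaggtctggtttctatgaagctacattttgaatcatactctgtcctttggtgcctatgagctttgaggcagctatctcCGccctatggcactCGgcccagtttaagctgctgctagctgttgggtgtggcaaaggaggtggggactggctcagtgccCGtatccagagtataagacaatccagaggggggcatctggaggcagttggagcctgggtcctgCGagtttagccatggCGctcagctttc
Cyp2j6: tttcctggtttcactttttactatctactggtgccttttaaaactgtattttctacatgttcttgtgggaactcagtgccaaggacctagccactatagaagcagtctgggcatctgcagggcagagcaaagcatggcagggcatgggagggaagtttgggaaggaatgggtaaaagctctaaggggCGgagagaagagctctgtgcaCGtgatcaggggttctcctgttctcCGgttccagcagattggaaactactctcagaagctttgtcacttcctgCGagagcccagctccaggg
Cyp2f2: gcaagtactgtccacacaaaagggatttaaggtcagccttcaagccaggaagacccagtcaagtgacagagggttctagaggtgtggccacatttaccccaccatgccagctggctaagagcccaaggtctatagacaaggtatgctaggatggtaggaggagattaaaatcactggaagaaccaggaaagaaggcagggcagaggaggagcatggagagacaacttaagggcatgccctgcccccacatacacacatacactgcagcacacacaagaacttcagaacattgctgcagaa

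The window of Cyp46a1 held 31 CpG dinucleotides and that of Cyp51 held 28. The Cyp2w1 and Cyp4b1 windows held 5 each, the Cyp2j6 window 4 and the Cyp2f2 window 0.

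Total counts ran from 15505018 to 21543385 per library, and a count of 3 corresponded to 0.132 to 0.199 CPM, the count relative to the library size after TMM scaling. Of the genes of the gate, Epcam lay between 85.8 and 158 CPM over the libraries and Ly6a, the gene for Sca1, between 16.4 and 22.7 CPM. The level of the integrin gene is not given here. Krt5, an epidermal marker outside the gate, lay between 11495 and 21198 CPM. By the Xist and Y-linked reads, mutant replicate 1 was the only male library. Marker genes of other cell types also moved with genotype. The summed level of 10 fibroblast markers was 3299 and 3498 CPM in the controls and 4151 and 4476 CPM in the mutants, and 3 of the 10 rose (Fn1, Thy1 and Dcn), with 8 higher at an unadjusted edgeR p under 0.05. That of 10 hair follicle markers was 513 and 553 CPM in the controls and 813 and 826 CPM in the mutants. Among the follicle markers Lhx2 rose, while Krt27 and Krt71, keratins of the inner root sheath, fell. Of the 10 follicle markers, 4 were higher and 3 lower at an unadjusted edgeR p under 0.05. DESeq2 called 3 follicle markers higher and 2 lower, and limma-voom 1 higher and 1 lower. The summed level of 10 epidermal markers was 30419 and 34465 CPM in the controls and 23439 and 22272 CPM in the mutants, with a fall of Krt15. At an unadjusted edgeR p under 0.05, 4 epidermal markers were lower and 1 higher. DESeq2 called 4 of these markers lower and 1 higher, and limma-voom 3 lower. Of the markers of smaller populations, Dgat2 of sebaceous cells (1 of 7 tested) and Piezo2 of Merkel cells (1 of 4) rose, Myh4 of skeletal muscle (1 of 3) fell to 0 counts, and none of the tested melanocyte (5), endothelial (7), immune (8) or adipocyte (5) markers passed in edgeR. At an unadjusted p under 0.05 these 4 lists held 1, 0, 3 and 0 markers, all higher. DESeq2 called 1 immune marker higher and limma-voom 0. The immune marker Cd3g was at 0 in every library. What part these shifts have in the P450 values was not tested, and in bulk RNA fewer cells of a type cannot be told apart from less RNA per cell.

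In the mutant epidermis 5 P450 genes fell (Cyp2w1, Cyp4b1, Cyp2j6, Cyp2f2 and Cyp2g1) and 1 rose (Cyp46a1). Of the 105 members 74 had at least 1 count and 30 in 13 families had enough counts to be tested, so the calls are 16.7% of tested members lower and 3.33% higher. Over all 14550 genes tested, 1.04% were called lower, 5.68% higher and 6.71% in either direction. This background depends on the fit: with offsets for GC content and length, 5.02% of 14260 genes were called lower and 5.13% higher, and 6 of the 30 tested members were lower and 1 higher. The test was edgeR's quasi-likelihood test with Benjamini-Hochberg adjustment over all tested genes, and a call is an adjusted p under 0.05. The median log2 fold change, mutant over control, was -0.22 over the 30 tested members and -0.01 over all tested genes. A gene passed the count filter more easily where it was high in at least 1 group, which limits what a count over tested members can say. Of the 5 genes that fell, 4 belong to family 2 and 1 to family 4.

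Cyp2w1, an orphan enzyme of family 2 known from fetal gut and from tumors, was the most abundant P450 of the epidermis. It lies at chr5:139352617-139357033 on GRCm38. The controls held 232 CPM (replicate 1) and 253 CPM (replicate 2), and the mutants 137 CPM (replicate 1) and 154 CPM (replicate 2). Values of other genes follow the same order of replicates. Both mutant libraries lay below both controls. The mean went from 242 ± 14.9 to 145 ± 12.1 CPM (SD, n = 2 per group). The fitted log2 fold change was -0.74 (SE 0.14, edgeR adjusted p = 0.0106). Cyp2w1 took 46.9% and 44.1% of all P450 counts in the controls and 35.9% and 40.1% in the mutants, so it alone set much of the summed level described later.

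Cyp4b1, a fatty acid hydroxylase best known from lung, where it also activates plant toxins, was the other abundant gene that fell (chr4:115624725-115647723). Its level was 52.5 and 52.4 CPM in the controls and 32.9 and 27.0 CPM in the mutants. The controls lay close together and above both mutants. The log2 fold change was -0.81 (SE 0.18, edgeR adjusted p = 0.0217). Of the 100-base stretches of its transcript, 4.46% also occur in the pseudogenes Cyp4b1-ps1 or Cyp4b1-ps2, so a small part of its reads could be shared.

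Cyp2j6 belongs to a subfamily known for epoxidizing polyunsaturated fatty acids (chr4:96516138-96553661). Its level was 12.9 and 14.9 CPM in the controls and 6.29 and 6.61 CPM in the mutants, with no overlap. The log2 fold change was -1.10 (SE 0.28, edgeR adjusted p = 0.0432), the largest adjusted p among the 6 called members.

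Cyp2f2, the naphthalene-activating enzyme of airway club cells, had the smallest adjusted p among the members (chr7:27119909-27133660). Its level was 9.04 and 10.4 CPM in the controls and 1.65 and 2.29 CPM in the mutants. The mean of 1.97 ± 0.450 CPM in the mutants stood against 9.72 ± 0.958 CPM in the controls (SD, n = 2 per group), and the groups lay far apart relative to their spread. The log2 fold change was -2.26 (SE 0.38, edgeR adjusted p = 0.00549). Exons of Gm15883 overlap Cyp2f2 on the other strand, and since the strand setting of the counting is not given in the sources used here, reads of the 2 genes cannot be told apart.

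Cyp2g1, an enzyme of the olfactory mucosa, had the most negative log2 fold change among the tested members (chr7:26808892-26821205). It had 40 and 177 counts in the controls and 2 and 10 counts in the mutants, or 2.38 and 11.7 CPM against 0.127 and 0.440 CPM. Both mutants were low, and the controls differed from each other several-fold. The log2 fold change of -4.44 had an SE of 0.98 (edgeR adjusted p = 0.0216). Without control replicate 2, the higher of the 2 controls, the log2 fold change was -2.91. The log2 fold change was -5.21 without control replicate 1 and -5.67 without mutant replicate 2.

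Cyp46a1, the cholesterol hydroxylase of neurons that lets the brain export cholesterol, was the member that rose (chr12:108334381-108362234). Its counts were 16 and 35 in the controls and 92 and 142 in the mutants, which gave 0.952 and 2.32 CPM against 5.85 and 6.25 CPM. Both mutants lay above both controls. The log2 fold change was 1.92 (SE 0.48, edgeR adjusted p = 0.0405). Without control replicate 1 the log2 fold change was 1.38, and without control replicate 2 it was 2.66.

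**Figure D1:**
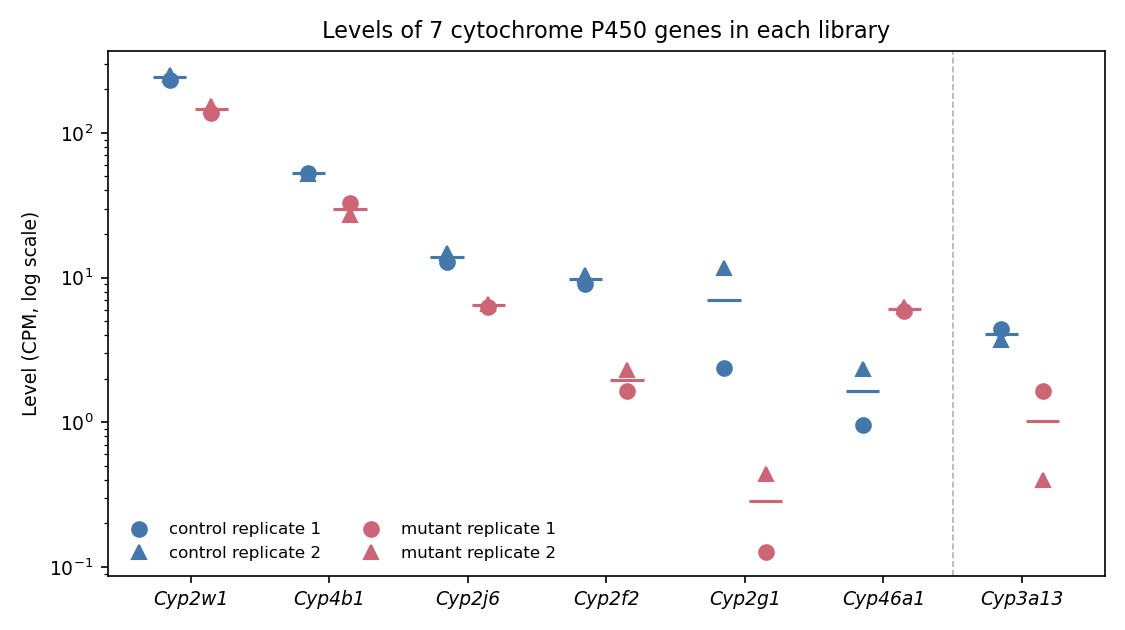
Levels in CPM (log axis) of the 6 called P450 genes and, right of the dashed line, of Cyp3a13, which did not pass; circles are replicate 1, triangles replicate 2, and horizontal bars group means (n = 2). For each of the 7 genes the mutant and control libraries do not overlap, and Cyp2g1 has the widest spread between controls on this log axis (2.38 and 11.7 CPM). The 6 called genes were picked by these same values, and the share of such genes over all tested genes was not computed. The separation is thus a description.

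With a control library left out, the spread came from the mutant pair alone. That pair varied more, with a chi-square per degree of freedom of 44.3 against 13.6 in the controls. These values include genes of the X and Y chromosomes, and the mutant pair was a male and a female library. What part sex has in them was not tested. A call lost without a control library cannot show dependence on 1 control, so calls are not counted. Without control replicate 1 the log2 fold changes of Cyp2w1, Cyp4b1, Cyp2j6, Cyp2f2, Cyp2g1 and Cyp46a1 were -0.81, -0.81, -1.21, -2.37, -5.21 and 1.38. Without control replicate 2 they were -0.68, -0.81, -0.998, -2.16, -2.91 and 2.66. Cyp2g1 and Cyp46a1 hung most on which control was used. With a mutant library left out, the spread came from the control pair alone, so passing was easier and is not counted here. Without mutant replicate 1, the male library, the log2 fold changes were -0.65, -0.96, -1.07, -2.08, -3.94 and 1.96 in that order. Without mutant replicate 2 they were -0.83, -0.67, -1.14, -2.55, -5.67 and 1.86. In each of these fits every one of the 6 genes kept its direction.

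Of the other 24 tested members, 16 had a negative and 8 a positive log2 fold change, and none passed. By edgeR 1 of the 24 had an unadjusted p under 0.05, and DESeq2 and limma-voom called 0 of them. Cyp3a13, the tested member of the drug-metabolizing family 3, came closest. It stood at 4.40 and 3.71 CPM in the controls and at 1.65 and 0.396 CPM in the mutants, with no overlap, and had a log2 fold change of -2.13 (SE 0.61, edgeR adjusted p = 0.0683). Its log2 fold change hung on which mutant was used, at -3.34 without mutant replicate 1 and -1.30 without mutant replicate 2. Next were Cyp2d22, a member of the drug-metabolizing 2D subfamily, at 1.28 on the log2 scale (SE 0.64, edgeR adjusted p = 0.336), and Cyp2b10, a target of the nuclear receptor CAR in liver, at -1.04 (SE 0.55, adjusted p = 0.367). Both had non-overlapping groups at low levels, 1.13 and 0.530 against 1.53 and 2.47 CPM for Cyp2d22, and 3.15 and 2.25 against 0.826 and 1.67 CPM for Cyp2b10. Of the 24 uncalled members, 19 overlapped between groups, and the share over all tested genes was not computed.

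**Figure D2:**
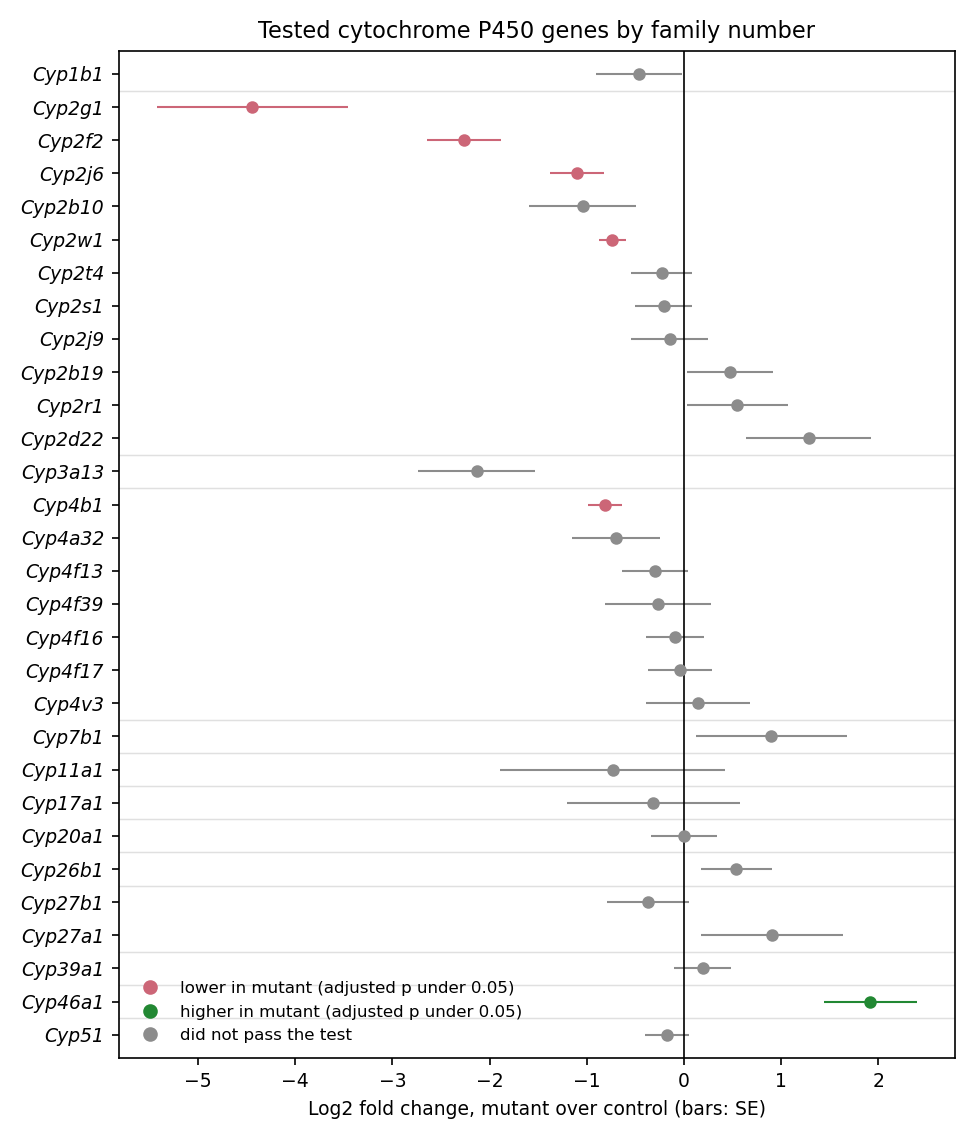
Log2 fold change, mutant over control, of the 30 tested P450 genes ordered by family number (separated by lines); bars are the SE of the fit. Of the 11 tested genes of family 2, 4 are lower, and Cyp46a1 at 1.92 is the called gene to the right of 0.

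By family number, family 2 had 4 lower of 11 tested members and family 4 had 1 lower of 7. The summed level of family 2 was 300 and 342 CPM in the controls and 202 and 203 CPM in the mutants, 63.1% of the control mean. That of family 4 was 91.6 and 87.7 CPM in the controls and 64.7 and 59.0 CPM in the mutants, 69.0% of the control mean. A single called gene held most of the family 2 sum in both groups and most of the family 4 sum in the controls only. Cyp2w1 averaged 242 CPM in the controls and 145 CPM in the mutants, against family 2 means of 321 and 202 CPM. Cyp4b1 averaged 52.4 and 30.0 CPM, against family 4 means of 89.6 and 61.9 CPM. Family 3 stood at 4.70 and 3.91 CPM against 2.29 and 0.484 CPM, mostly reads of Cyp3a13. In these 3 families both mutants lay below both controls. No test of the sums was run, so this separation is a description. All members together summed to 494 and 573 CPM in the controls and 380 and 384 CPM in the mutants. With Cyp2w1 taken out, the sums were 262 and 320 CPM against 243 and 230 CPM, closer together but still without overlap. That remainder still held the other called genes, among them Cyp4b1 at 52.5 and 52.4 CPM against 32.9 and 27.0 CPM. A sum without all called genes was not made, so the remainder does not show a fall of uncalled members.

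**Figure D3:**
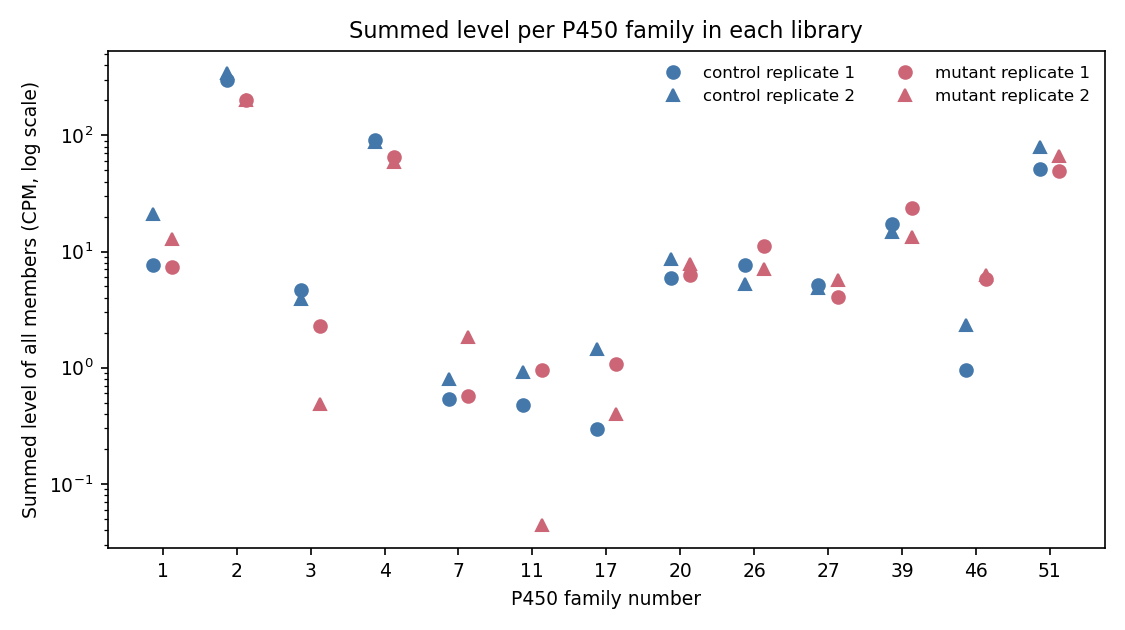
Summed level in CPM (log axis) of all members of each P450 family with a tested member, 13 families, in each library; circles are replicate 1 and triangles replicate 2. Families 2, 3 and 4 are lower in both mutants than in both controls, family 46 (Cyp46a1 alone) is higher, and in the other 9 families the groups overlap.

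Among the remaining members of families 1 to 4, several have known roles in skin. Cyp1b1, an enzyme of estrogen and hydrocarbon metabolism induced through the aryl hydrocarbon receptor, had 7.55 and 20.7 CPM in the controls and 7.12 and 12.8 CPM in the mutants. Replicate 2 was the higher library in both groups, the groups overlapped, and the log2 fold change was -0.46 (SE 0.44, edgeR adjusted p = 0.673). Cyp2s1, an epithelial enzyme also induced through that receptor, had 23.2 CPM in both controls and 27.0 and 13.8 CPM in the mutants, which lay on either side (-0.21, SE 0.30, adjusted p = 0.794). Exons of Gm26707 overlap Cyp2s1 on the other strand. Cyp2b19, the arachidonic acid epoxygenase of mouse keratinocytes, had 3.98 and 6.89 CPM in the controls and 10.5 and 4.98 CPM in the mutants (0.47, SE 0.44, adjusted p = 0.665). Cyp4f39, the mouse counterpart of the human enzyme that hydroxylates ultra-long fatty acids for acylceramide, had 3.39 and 2.05 CPM in the controls and 1.27 and 3.04 CPM in the mutants (-0.27, SE 0.54, adjusted p = 0.866). Cyp4f17, of the leukotriene and fatty acid hydroxylating 4F subfamily, had 13.03 and 7.08 CPM in the controls and 9.92 and 9.82 CPM in the mutants (-0.04, SE 0.33, adjusted p = 0.974). These 5 genes overlapped between groups.

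Among the sterol enzymes, Cyp51, the lanosterol demethylase of cholesterol synthesis, had 51.0 and 79.9 CPM in the controls and 49.6 and 65.9 CPM in the mutants. Its log2 fold change was -0.17 (SE 0.23, edgeR adjusted p = 0.772), and the spread within each group exceeded the difference between them. Exons of Akap9 overlap Cyp51 on the other strand. Cyp39a1, an oxysterol hydroxylase of bile acid synthesis, had 17.2 and 14.6 CPM in the controls and 23.7 and 13.4 CPM in the mutants (0.20, SE 0.29, adjusted p = 0.807). Cyp7b1, another oxysterol hydroxylase, had 0.535 and 0.795 CPM against 0.572 and 1.72 CPM (0.90, SE 0.77, adjusted p = 0.629), and Cyp27a1, the mitochondrial sterol hydroxylase, 1.72 and 0.265 CPM against 1.27 and 2.42 CPM (0.90, SE 0.73, adjusted p = 0.601). Of the tested members that act on sterols, Cyp46a1 was the one that passed.

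The vitamin D and retinoic acid enzymes did not pass in either direction. Cyp27b1, which makes the active hormone from its precursor, had 3.39 and 4.57 CPM in the controls and, below both, 2.80 and 3.26 CPM in the mutants (log2 fold change -0.37, SE 0.42, edgeR adjusted p = 0.728). Cyp2r1, which carries out the first hydroxylation of vitamin D, had 1.25 and 2.85 CPM against 3.24 and 2.73 CPM (0.55, SE 0.52, adjusted p = 0.667). Cyp24a1, which breaks the hormone down, had 10 and 0 counts in the controls and 7 and 3 in the mutants, too few to test. Cyp26b1, a retinoic acid hydroxylase, had 7.43 and 4.77 CPM in the controls and 11.1 and 7.13 CPM in the mutants (0.54, SE 0.36, adjusted p = 0.509). Its relatives Cyp26a1, with 4 and 7 counts in the controls and 0 in both mutants, and Cyp26c1, at 0 in every library, could not be tested.

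The steroidogenic members were close to the limit of detection. Cyp11a1, the side-chain cleavage enzyme that starts steroid synthesis, had 0.416 and 0.927 CPM in the controls, 0.954 CPM in mutant replicate 1 and no count in mutant replicate 2 (log2 fold change -0.73, SE 1.16, edgeR adjusted p = 0.819). Cyp17a1, which makes androgen precursors, had 0.297 and 1.46 CPM against 1.08 and 0.396 CPM (-0.31, SE 0.89, adjusted p = 0.912). Cyp19a1, the aromatase that makes estrogens, had a single count, in mutant replicate 2. Cyp21a1 had 2 counts in each control and 0 in both mutants. No difference of these genes was detectable at this depth.

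Of the 105 members 31 had no count in any library and 44 more had counts but were not tested, the highest of these with 62 counts over the 4 libraries. A count of 0 in a library allows up to 0.132 to 0.199 CPM, counting error only. Cyp1a1, the classic target of the aryl hydrocarbon receptor, was among the low genes with 1 and 2 counts in the controls and 3 and 1 in the mutants. P450 reads came mostly from few genes, with Cyp2w1, Cyp4b1 and Cyp51 holding 67.9% and 67.2% of member counts in the controls and 57.7% and 64.3% in the mutants. Some untested genes, chosen after their values were seen, differed between libraries. Cyp2d26 had 0 and 1 counts in the controls and 21 and 7 in the mutants, a ratio of pooled counts per scaled library of 23.2 with an exact binomial 95% interval of 3.84 to 951. Cyp2u1 had 1 count in each control, 2 in mutant replicate 1 and 25 in mutant replicate 2, so its ratio of 11.2 (2.82 to 97.3) came from 1 library. Cyp4f37 had 8 and 44 counts in the controls and 1 and 9 in the mutants, a ratio of 0.160 (0.0724 to 0.318), and its control replicate 1 had fewer counts than mutant replicate 2. These intervals cover counting error only and not the spread between libraries.

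On a scale of CPM per kilobase of exon, which allows genes to be compared with each other, Cyp2w1 led the tested members with 160 ± 9.83 in the controls (SD, n = 2). Cyp4b1 followed with 23.2 ± 0.0455, and Cyp51 with 14.8 ± 4.63. Cyp39a1 (5.22 ± 0.606), Cyp2t4 (5.17 ± 1.20), Cyp2f2 (4.80 ± 0.473), Cyp2s1 (4.70 ± 0.00316), Cyp2j6 (3.86 ± 0.391), Cyp2g1 (3.29 ± 3.08), Cyp20a1 (3.16 ± 0.821) and Cyp4f17 (3.14 ± 1.31) came next. Among these 8 genes the step from each gene to the next was smaller than the SD of at least 1 of the pair, except from Cyp2s1 to Cyp2j6. Cyp46a1 was at rank 25 of 30 in the controls, with 0.497 ± 0.294 CPM per kilobase. In the mutants the order of the leading genes Cyp2w1, Cyp4b1, Cyp51, Cyp39a1 and Cyp2t4 was the same, with Cyp4b1 (13.3) now close to Cyp51 (13.1). Cyp2f2 moved from rank 6 to 20, Cyp2j6 from 8 to 12, Cyp2g1 from 9 to 29 and Cyp46a1 from 25 to 11.

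Cyp2g1 and Cyp2f2 lie in 1 cluster of family 2 genes on chromosome 7, which made it possible to look at neighbors. The cluster spans chr7:25802475-27158668 on GRCm38, 1356 kb, and holds 13 members, of which 6 were tested. Cyp2g1 and Cyp2f2, whose starts lie 311 kb apart, both fell. Cyp2b19, which starts 51.8 kb before Cyp2g1, had a log2 fold change of 0.47, and Cyp2t4, which starts 344.8 kb after Cyp2g1, had one of -0.23 (SE 0.32, edgeR adjusted p = 0.789). Neither passed, and neither did Cyp2s1 or Cyp2b10 at the other end of the cluster. Exons of Egln2 overlap Cyp2t4 on the other strand. The 7 members without a test, among them all 3 that lie between Cyp2g1 and Cyp2f2 (Cyp2a5, Cyp2a22 and Cyp2a12), had 0 to 11 counts in all 4 libraries together. Of the 19 other tested genes within 200 kb of the cluster's ends, 0 were called higher and 0 lower, beside 6.71% of all tested genes called in either direction. By edgeR 1 of the 19 had an unadjusted p under 0.05, and DESeq2 and limma-voom also called 0. Between and beside the 2 genes that fell thus lie members that did not pass or were too low to test.

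**Figure D4:**
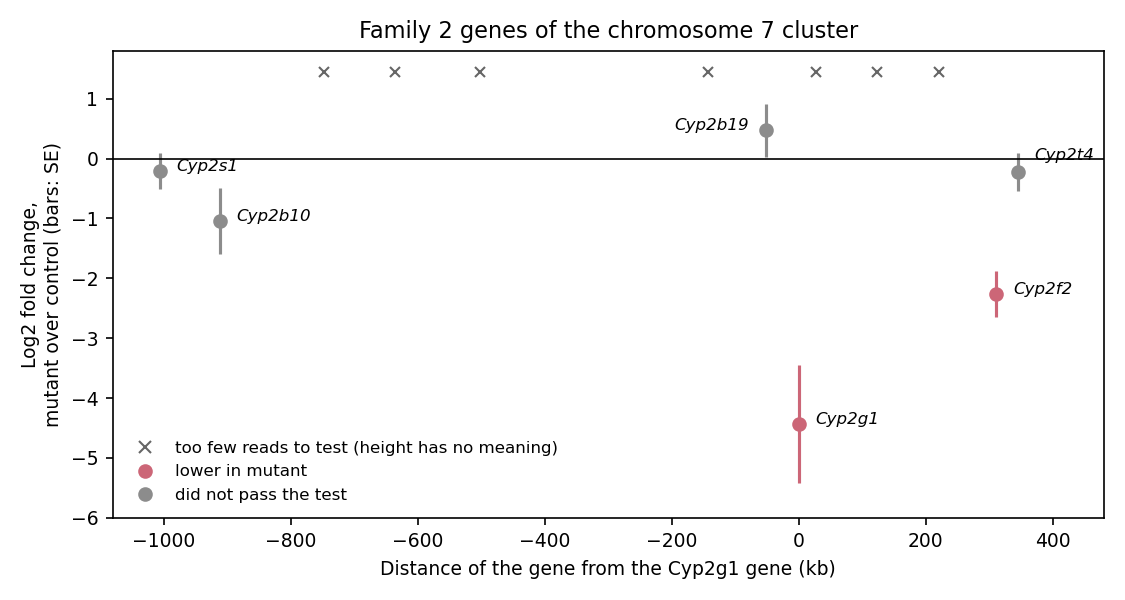
Log2 fold change, mutant over control, of the 6 tested family 2 genes of the chromosome 7 cluster against the distance of their start from that of Cyp2g1 in kb; bars are the SE, and crosses mark the positions of the 7 members too low to test. Cyp2g1 at -4.44 and Cyp2f2 at -2.26 are the lower genes, with Cyp2b19 and Cyp2t4 near 0 beside them.

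Promoter windows were found in RefSeq for 78 of the 105 members and for 24 of the 30 tested. Where a gene had several windows, as 1 tested and 6 untested members did, the first by coordinate was used, for members and for all 27025 genes of the table alike. Those 27025 genes include genes not tested here, and shares over tested genes alone were not computed. The 4 genes that fell and had a window held 0 to 5 CpG dinucleotides, while the window of Cyp46a1, with 31, held more than those of 89.7% of all genes. Its observed-to-expected CpG ratio was 0.972, and its GC content 70.3%. The median count of CpG was 7 over all genes, 6 over the 24 tested members and 2 over the 54 members not tested. A low CpG count was common: 44.2% of all genes and 7 of the 19 uncalled tested members with a window held at most 5. A high count was not rare either: 34.7% of all genes and 6 of the 19 uncalled members held at least 15. These were Cyp1b1 (16), Cyp2s1 and Cyp4v3 (17 each), Cyp20a1 (20), Cyp2r1 (22) and Cyp51 (28). The letters GCGTG, the core bound by the aryl hydrocarbon receptor with its partner, were searched on both strands, each match containing 1 CpG. They occurred in the windows of 11 of the 24 tested members (45.8%) and of 32.2% of all genes, with 4 matches in Cyp46a1, 2 in Cyp51, 1 in Cyp2w1 and 0 in Cyp4b1, Cyp2j6 and Cyp2f2. A match is a description of the sequence and no evidence of binding.

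**Figure D5:**
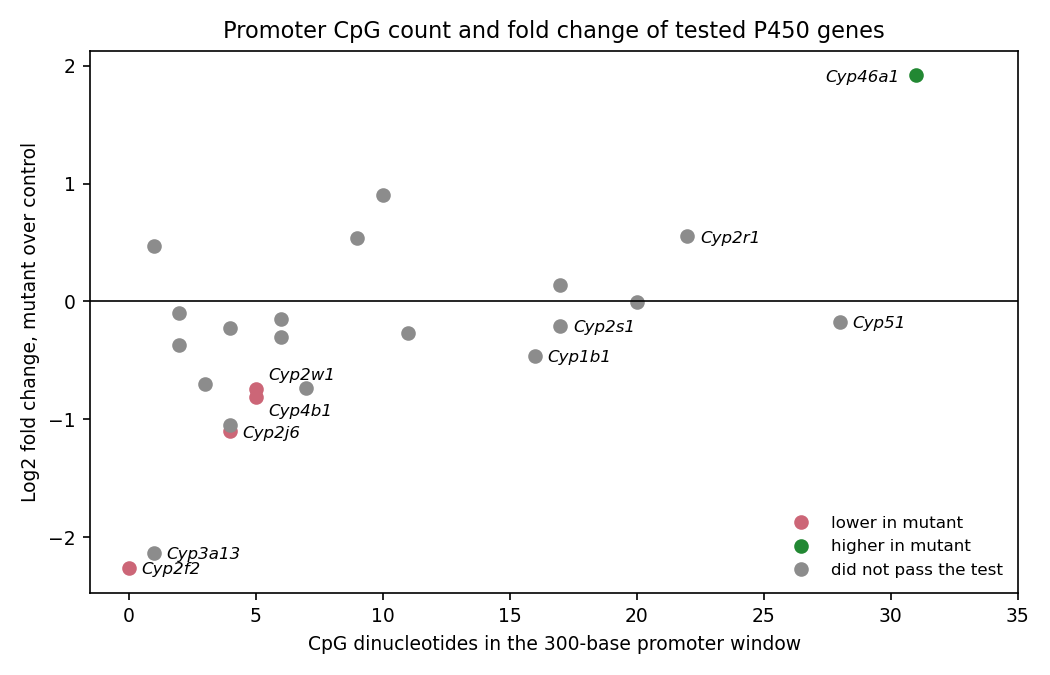
Log2 fold change, mutant over control, of the 24 tested P450 genes with a RefSeq promoter window against the number of CpG dinucleotides in that window of 300 bases. Cyp46a1 (31 CpG) is at the upper right, the 4 lower genes hold 0 to 5, and uncalled genes spread from 1 to 28.

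Genes that serve P450 enzymes or act in the same pathways were followed in 9 lists with 176 genes in the files, of which 137 were tested, 12 were higher and 3 lower, beside 5.68% higher and 1.04% lower among all tested genes. With offsets for GC content and length the companion genes gave 10 higher and 8 lower, beside 5.13% higher and 5.02% lower over all genes in that fit. With the offsets and a replicate block the companion genes gave 15 and 19. No share over all genes is given here for that fit, so these counts cannot be read as a result about the companion genes. In the main fit the median log2 fold change of the companion genes was 0.00, beside -0.01 over all tested genes. That of single lists with more than 1 tested gene ran from -0.19 (heme) to 0.28 (acylceramide and fatty acids). Without mutant replicate 2 the calls of Sult2b1 (edgeR adjusted p = 0.0897) and Esr1 (0.0506) were lost. Among 11 tested electron donors and their partners, Cyb5r3, which reduces cytochrome b5, rose from 233 and 225 CPM to 345 and 472 CPM (log2 fold change 0.84, SE 0.17, edgeR adjusted p = 0.0128), and none fell. The reductase Por itself, named after its values were seen, had 52.8 and 61.4 CPM in the controls and 46.3 and 69.3 CPM in the mutants (0.03, adjusted p = 0.974). Of 11 genes of heme synthesis and breakdown, Hmox1, which degrades heme, rose from 18.3 and 14.8 CPM to 41.8 and 34.6 CPM (1.20, adjusted p = 0.0072). Cpox, an enzyme late in heme synthesis, fell from 84.5 and 108 CPM to 59.9 and 54.6 CPM (-0.75, adjusted p = 0.0251).

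Of 17 tested receptors and regulators of xenobiotic P450 genes, 1 rose and none fell. It was Arnt2, a paralog of the dimer partner of the aryl hydrocarbon receptor, which went from 0.833 and 1.92 CPM to 9.60 and 16.2 CPM (log2 fold change 3.27, edgeR adjusted p = 0.00264, and 3.96 without control replicate 2). None of the 15 tested vitamin D and retinoid partners passed, though 3 higher and 2 lower had an unadjusted p under 0.05, and DESeq2 and limma-voom called 0. The list's genes of highest level were the retinoic acid receptors Rara (0.13, edgeR adjusted p = 0.783) and Rarg (-0.44, adjusted p = 0.108). Nor did any of the 21 genes of cholesterol synthesis and its control, in which Cyp51 acts, by edgeR, DESeq2 or limma-voom, with 1 higher at an unadjusted edgeR p under 0.05. Highest in level were the synthase Hmgcs1 (-0.14, edgeR adjusted p = 0.723) and the regulator Srebf2 (-0.05, adjusted p = 0.940). Of 13 tested steroid partners, 2 rose and none fell, among them the estrogen receptor gene Esr1 (1.90, edgeR adjusted p = 0.0232). The other P450 genes whose symbols do not start with Cyp were low, with Tbxas1, thromboxane synthase, at 0.0595 and 0.596 CPM against 1.02 and 0.881 CPM (1.56, adjusted p = 0.438) and Ptgis, prostacyclin synthase, not tested.

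Of 22 tested partners in acylceramide and fatty acid metabolism, 4 rose and 1 fell, and at an unadjusted edgeR p under 0.05, 9 were higher and 1 lower. Aloxe3, a lipoxygenase that acts on barrier ceramides, rose from 1.67 and 3.64 CPM to 11.4 and 10.3 CPM (log2 fold change 2.05, edgeR adjusted p = 0.0122, and 2.69 without control replicate 2). Ugcg, glucosylceramide synthase, rose by 0.81 (adjusted p = 0.0185) and Ptges, a prostaglandin E synthase, by 1.01 (adjusted p = 0.0288). Acsl1, which activates long fatty acids, fell from 128 and 148 CPM to 59.6 and 96.2 CPM (-0.82, adjusted p = 0.0479). Of 27 tested conjugating enzymes, 3 rose and 1 fell. At an unadjusted edgeR p under 0.05, 3 were higher and 7 lower, and the median log2 fold change of the list was -0.14. Among those that rose were the glutathione transferase gene Gstm5 (2.19, edgeR adjusted p = 0.0104) and the cholesterol sulfotransferase gene Sult2b1 (1.25, adjusted p = 0.0394), a call that limma-voom did not make (0.0522). Gstk1, a mitochondrial and peroxisomal glutathione transferase, fell (-2.66, adjusted p = 0.0114).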

How the data were processed

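RNA-seq of 2 control and 2 mutant libraries was used, grouped by the sample labels. Per the labels' protocols, 10 ng of total RNA was amplified as cDNA and sequenced in single 100-nucleotide reads. The authors deposited raw whole-number counts per gene symbol. Per the submitters' processing notes the genome build was mm10, and the tools listed, without a role, are HTSeq 0.6.1, TopHat2 2.0.13, DESeq2 1.6.3 and Cufflinks 2.2.1. Which annotation and strand setting the counting used is not given in the sources used here.

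Genes passing filterByExpr (minimum count 10, minimum total 15) were tested with edgeR 4.0.16 (R 4.3.3) by glmQLFit and glmQLFTest, two-sided, after TMM scaling, with no block and with Benjamini-Hochberg adjustment over all tested genes. CPM are counts over the scaled library size, and the SE comes from the coefficient and its F statistic. The code was tested on simulated data. Replicates differed beyond sampling noise (chi-square per degree of freedom 13.6 in controls and 44.3 in mutants) and were kept as separate samples. Intervals and floors (3 counts) cover counting error only, since reads carry no molecular identifiers. GENCODE M21 (GRCm38) gave coordinates, exon lengths and GC content for 103 of 105 members by symbol (not Cyp2c44 and Cyp2d13), and RefSeq (GRCm38.p6) gave promoter windows.

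The members and gene lists were chosen with earlier results of these data known. The genes named are every called member, members with a mean of at least 10 CPM, the 3 uncalled members of smallest adjusted p, and members with set roles in skin, sterol, vitamin, retinoid or steroid metabolism. Of each companion list they are up to 3 called genes per direction, or else the 2 of highest mean CPM. Others were chosen after their values were seen. Some genes that the rule names are not reported here. As alternatives, upper-quartile and RLE scaling, limma-voom (limma 3.58.1), DESeq2 1.42.0, no count filter, at least 1 CPM in 2 libraries, each library left out, a replicate block, offsets for GC content and length (loess span 0.5) alone and with the block were tried, and, chosen after seeing the data, the earlier quasi-likelihood fit. Cell type marker lists were compared by their summed CPM.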

Additional observations from a re-analysis of the deposited data

How the results depend on the processing

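Among the settings that kept all 4 libraries, the 5 lower and 1 higher P450 calls became 3 and 0 with limma-voom, where Cyp2g1 (adjusted p = 0.155), Cyp2j6 (0.0505) and Cyp46a1 (0.0592) missed the threshold, and 0 higher with the earlier quasi-likelihood fit (Cyp46a1 0.0620). Leaving out 1 library at a time gave 1 to 6 lower and 0 to 2 higher P450 genes, and 0 to 9 lower and 1 to 17 higher companion genes. The lone library of an arm is then assumed to vary like the other group. The mutant pair varied more than the control pair, so these counts do not measure dependence on a single library. The lowest counts came without control replicate 1, and the fits without mutant replicate 1 or 2 added Cyp2u1 or Cyp2d26 to the higher genes. The 3 lower companion genes became 5 with DESeq2, 6 with the replicate block, 8 with GC content and length offsets and 19 with these offsets and the replicate block. All genes called lower went from 151 to 226 with DESeq2 and to 716 with the offsets. That number is not given here for the fits with the block, so these counts do not single out the companion genes. Cyp3a13 passed in 5 of 14 settings, and the cause of these changes was not tested. With the offsets the median of all tested genes moved from -0.01 to -0.14 and that of the P450 genes to -0.36, and calls over all genes went from 826 higher and 151 lower to 731 higher and 716 lower.

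Same-numbered libraries did not deviate together (correlation 0.049). With 2 libraries per group this cannot exclude a shared litter or day, and no label says what the replicate numbers mark. With the replicate block 6 P450 genes were lower and 1 higher. RLE, upper-quartile scaling and the filters left the P450 counts within 1 gene, and no alternative reversed the direction of a called member. Summed family levels moved by less than the spread between replicates under both scalings, leaving aside the family 2 sums of the mutants. Those lay too close together (SD 0.351 CPM) for such a comparison. Depth limits the 75 untested members.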
